A study of Mus musculus with 9 samples.

Results

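The p53 network was followed across promoters through 39 listed genes: p53 itself, its inhibitors, the arrest and repair genes it controls, and the machinery of apoptosis. A gene was kept when a promoter window in the authors' deposited table could be given to it, which held for 35 of the 39, among 10188 genes with a window and 10271 windows in all. Each of the 35 had exactly 1 window. Cflar, Fas, Plk2 and Pmaip1 had none and were not analysed here. The assay was ATAC-seq, which uses the Tn5 transposase to tag chromatin where it is open. The cells were HPC7, an established mouse line of hematopoietic progenitors kept in stem cell factor, transduced with a retrovirus. The groups were an empty vector (EV, the control, 3 libraries), wildtype FLAG-tagged Snai1 (3 libraries), and mut5Snai1, a mutant (3 libraries) that was not analysed here. Whether libraries of 1 group stem from separate transductions is not stated in the labels, so the p-values the authors deposited cover only how far these libraries differ, which may be technical variation.

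p53 is a transcription factor that is held low by the ubiquitin ligase Mdm2 and its partner Mdm4 and accumulates after DNA damage. It then switches on genes that stop the cell cycle, repair DNA or tip the balance of the Bcl2 family at the mitochondrion towards release of cytochrome c, which assembles Apaf1 and caspase 9 into the apoptosome. Blood progenitors are known to be among the cells most prone to p53-driven death. Snai1 is a zinc finger repressor that binds E-boxes with the core letters CAGGTG and is best known for silencing epithelial genes.

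In the authors' deposited table, accessibility was given as a log2 concentration (the name DiffBind uses for a window's normalized reads), with 1 value for EV and 1 for Snai1. It held no value per library, so the group values carry no standard deviation and the number of reads per library is unknown. Changes are Snai1 minus EV on the log2 scale. The implied SE is the error worked back from a change and its p-value, and a window was called at the authors' FDR under 0.05. Windows of genes on the plus strand were 2001 bp wide and those on the minus strand 1101 bp, so levels were ranked only among windows of the same width. Of 14 markers of hematopoietic progenitors, 13 had a window (all but Erg), with log2 concentrations in EV from 9.22 to 12.22. Of 8 fibroblast markers only Pdgfrb had one (10.14 in EV). How windows were chosen for the table is not stated in its sources, so a missing window does not show closed chromatin.

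The promoters that carried the largest decreases, and the only one of 31 with the Snai1 E-box core, are shown first. They are the 250 bases before the annotated start nearest to the window's start site, from RefSeq (GRCm38.p6, the same coordinates as mm10), 5' to 3' on the gene's strand. Capitals mark CAGGTG or its complement CACCTG, exact matches to the p53 decamer (the repeated unit of a p53 binding site, searched by its consensus, which reads the same on both strands), and pairs of such decamers up to 13 bases apart with at most 2 letters off in all. Cdkn1a lies at chr17:29090729-29090978 on the plus strand, Gadd45a at chr6:67037408-67037657, Btg3 at chr16:78376811-78377060, Btg2 at chr1:134079156-134079405 and Diablo at chr5:123524165-123524414, the last 4 on the minus strand.
Cdkn1a: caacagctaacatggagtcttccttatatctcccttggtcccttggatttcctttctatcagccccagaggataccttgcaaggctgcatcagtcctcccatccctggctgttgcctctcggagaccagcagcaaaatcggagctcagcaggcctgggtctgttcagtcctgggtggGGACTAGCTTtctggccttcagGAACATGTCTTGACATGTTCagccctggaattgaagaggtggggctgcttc
Gadd45a: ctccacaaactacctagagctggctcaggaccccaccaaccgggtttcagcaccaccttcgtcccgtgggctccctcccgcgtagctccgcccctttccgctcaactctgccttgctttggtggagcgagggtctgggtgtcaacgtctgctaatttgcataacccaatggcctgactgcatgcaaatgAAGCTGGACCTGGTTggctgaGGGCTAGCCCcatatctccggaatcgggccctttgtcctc
Btg3: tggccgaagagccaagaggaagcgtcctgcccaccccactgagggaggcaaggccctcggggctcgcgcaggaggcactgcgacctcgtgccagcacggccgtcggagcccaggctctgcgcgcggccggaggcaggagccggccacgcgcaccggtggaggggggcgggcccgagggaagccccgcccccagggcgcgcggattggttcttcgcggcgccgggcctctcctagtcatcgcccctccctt
Btg2: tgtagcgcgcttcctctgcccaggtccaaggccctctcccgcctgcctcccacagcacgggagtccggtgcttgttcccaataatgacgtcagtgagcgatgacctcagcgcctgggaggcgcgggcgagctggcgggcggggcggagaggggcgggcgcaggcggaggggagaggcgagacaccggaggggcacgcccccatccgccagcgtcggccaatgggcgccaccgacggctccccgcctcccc
Diablo: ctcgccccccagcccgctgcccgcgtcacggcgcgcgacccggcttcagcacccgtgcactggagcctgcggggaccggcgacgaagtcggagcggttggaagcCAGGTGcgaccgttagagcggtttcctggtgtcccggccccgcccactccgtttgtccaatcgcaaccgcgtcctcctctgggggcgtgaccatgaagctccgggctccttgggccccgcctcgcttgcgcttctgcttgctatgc

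Promoter sequences were found for 31 of the 35 genes. The p53 decamer occurred in 8 of these (25.8%): Trp53, Mdm2, Ppm1d, Cdkn1a, Gadd45a, Ccng1, Sesn1 and Bax. It occurred in 5.6% of the 8204 RefSeq promoters that lie at a window of the table. Pairs of decamers were found in 5 of the 31 (16.1%), against 3.0% of those 8204 promoters. The genes were listed for their place in the p53 network and apoptosis, with p53 targets among them, so this is a description of the list. Cdkn1a held the only exact pair among the 31, with decamers that began 73 and 51 bases before the start. A second pair there, with 1 letter off, began at 51 and had no bases between its units. In Gadd45a an exact decamer began 40 bases before the start, and its pairs had 2 letters off. Bax, Ccng1 and Sesn1 also held pairs, and none of the 3 was called. The E-box core CAGGTG occurred in 1 of the 31 (3.2%), Diablo, against 1152 of the 8204 promoters and 17.2% of all 32851 in RefSeq. None of the called genes with a promoter sequence held CAGGTG in these 250 bases, which are only part of each window. GC content had a median of 64.4% in the 31 promoters and 60.4% in the 8204. The CpG ratio (CpG pairs observed over those expected from the base content) had the same median in both, 0.77. Its median was 0.54 in the 6 lower genes, with a range of 0.11 to 0.82. In the 5 higher genes with a sequence it was 0.96, from 0.81 to 1.07, and in the 20 not called 0.75, from 0.38 to 1.19. No difference between these groups was tested.

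In the authors' deposited table, 12 of the 35 genes were called, 6 higher and 6 lower in Snai1. The shares were 34.3% called, 17.1% higher and 17.1% lower, against 29.9%, 19.6% and 10.3% of all 10271 windows. The share called thus lay near the background, and the share lower was above it. The higher genes were Trp53inp1, Bcl2l11, Ppm1d, Ripk1, Birc2 and Mcl1. The lower genes were Btg3, Gadd45a, Cdkn1a, Btg2, Mdm4 and Phlda3. The median change of the 35 was 0.01, against 0.08 for all windows, and 48.6% of the genes lay below 0 against 31.1% of windows. Most changes were small: 29 of the 35 (82.9%) moved by less than 0.3 log2, as did 83.5% of all windows. A change of at least 1 log2 was seen at Btg3, Gadd45a and Cdkn1a, all downwards, which is 8.57% of the genes. Of all windows, 2.03% moved that far in either direction and 1.33% downwards. When the median of all windows was subtracted and the changes were tested again with the implied SE, 2 genes were higher and 10 lower. The background was then 21.0% called, 7.23% higher and 13.8% lower.

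**Figure D1:**
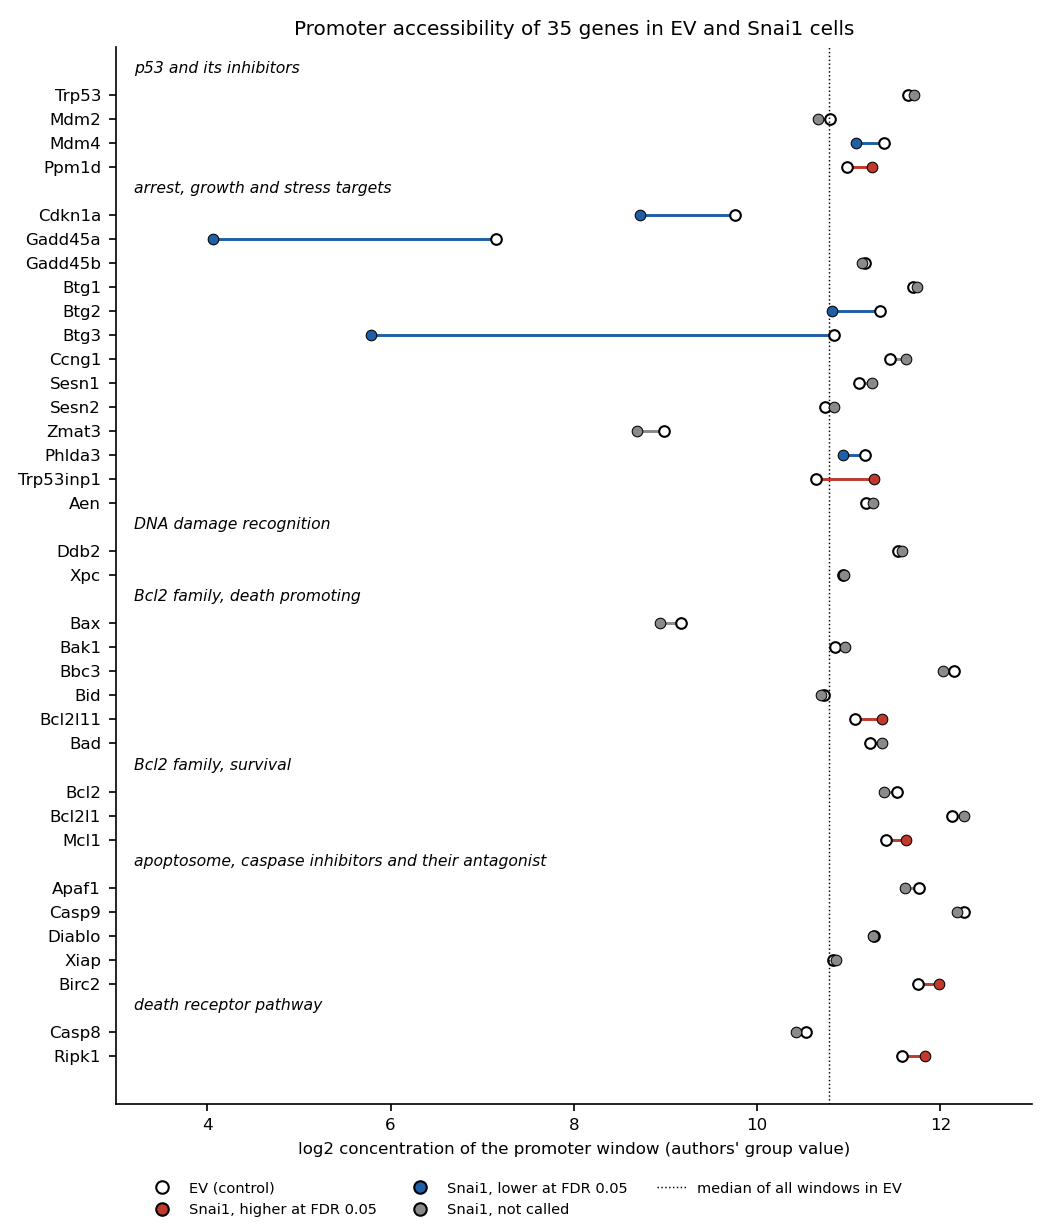
Log2 concentration of the promoter window (x axis, the authors' group values) for the 35 genes, ordered by role. Open circles are EV and filled circles Snai1, coloured by the authors' call; most pairs nearly touch, and the long lines are Btg3 (10.84 to 5.79), Gadd45a (7.15 to 4.06) and Cdkn1a (9.76 to 8.72).

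The gene of p53 and those of its antagonists were open in both groups and changed by at most 0.30 log2. Trp53 had a log2 concentration of 11.65 in EV and 11.71 in Snai1 (change 0.07, FDR 0.60) in the authors' deposited table. Its window shares 966 bp with that of Wrap53, the gene read from the opposite strand, whose change was 0.03. Mdm2, the ubiquitin ligase that degrades p53, went from 10.80 to 10.66 (change -0.14, FDR 0.21). Mdm4, the Mdm2 relative that masks the activation domain of p53, fell from 11.38 to 11.08 (change -0.30, implied SE 0.08, FDR 7.54e-04). The Mdm4 window (mm10, chromosome 1, 133025316 to 133026416) sits at a second annotated start, 5171 bp inside the gene, and the first start lies outside it. Ppm1d, the phosphatase Wip1 that switches the damage response off, rose from 10.98 to 11.25 (change 0.27, implied SE 0.08, FDR 0.00629), by the authors' deposited table. Of these 4 genes, 1 was higher, 1 lower and 2 were not called (25.0% higher and 25.0% lower, against 19.6% and 10.3% of all windows).

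The largest decrease of the 35 was at Btg3, an antiproliferative gene of the BTG/Tob family whose products bind the CCR4-NOT deadenylase. In the authors' deposited table its window (chromosome 16, 78376657 to 78377757) had a log2 concentration of 10.84 in EV and 5.79 in Snai1. That is a change of -5.06, or 33.4-fold lower (implied SE 0.25, FDR 2.06e-87). In these bulk samples, fewer cells with the promoter open and less opening in each cell cannot be told apart. Other reasons for fewer reads in a window were not tested. EV stood at percentile 61.4 of windows of that width, an ordinary open promoter, and the decrease ranked 5 among all 10271 windows. The window's start site lay 424 bp inside the annotated 5' boundary, 53 bp from a second annotated start. Between 55.8 and 91.9 Mb on chromosome 16, a stretch of 65 windows also shifted downwards as a whole, but by far less, with a median of -0.39. Why whole stretches shifted, here or on other chromosomes, was not tested. Within 5 Mb of Btg3 the other 5 windows changed by -0.52 to -0.13.

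The other BTG genes did not share that size of change. Btg2, a p53 target that slows entry into S phase, fell from 11.34 to 10.82 (change -0.52, implied SE 0.09, FDR 2.57e-07), by the authors' deposited table. Btg1, its closest relative, stood at 11.70 in EV and 11.75 in Snai1 (change 0.05, FDR 0.72). The differences between these 3 genes were not tested. Btg2 lies in a stretch of chromosome 1 that was lower over 345 windows, from 92.5 to 195.1 Mb, with a median of -0.24. Set against that median its change was -0.28 (adjusted p 0.0218 with the implied SE), so it stayed lower. Btg2 still lay among its neighbours: the lowest of 52 other windows within 5 Mb changed by -1.46. Of the 25 windows from Mdm4 to Phlda3 on that chromosome, Btg2 ranked 4 from the lowest.

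Gadd45a, a stress gene that binds PCNA and p21 and inhibits the Cdk1 kinase, had the second largest decrease. In the authors' deposited table its window (chromosome 6, 67037307 to 67038407, at the annotated start) fell from 7.15 to 4.06, a change of -3.10 or 8.57-fold (implied SE 0.30, FDR 1.46e-22). It was barely open to begin with: 7.15 in EV is percentile 3.4 of windows of that width. Its decrease ranked 19 among all windows. The nearest window on each side went the other way without being called. These were Mad2l1, 501.9 kb away, by 0.20 (FDR 0.0927) and Serbp1, 229.6 kb away, by 0.19 (FDR 0.114). All 16 other windows within 5 Mb lay between -0.09 and 0.25. Gadd45b, its relative induced by stress and cytokines, stood at 11.18 in EV and 11.15 in Snai1 (change -0.03, FDR 0.81), percentile 60.1 in EV.

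Cdkn1a encodes p21, the cyclin-dependent kinase inhibitor through which p53 halts the cell in G1. In the authors' deposited table its window (chromosome 17, 29089986 to 29091986) fell from 9.76 to 8.72, a change of -1.04 or 2.06-fold (implied SE 0.30, FDR 0.00413). The error was the widest of the 35, together with that of Gadd45a. It was wide for this level: Bax and Zmat3, less open in EV, had implied SEs of 0.115 and 0.123. The reason was not tested. The window is centred on the upstream of the annotated starts and holds both pairs of p53 decamers printed above. The other annotated start of Cdkn1a lies 2783 bp further on, outside the window, and was not measured here. Trp53cor1, the long non-coding RNA gene lincRNA-p21 that lies 11.9 kb away and is itself a p53 target, had a change of 0.07 (FDR 0.56). The median of the 10 nearest windows on each side was 0.105, and none of the 193 other windows within 5 Mb fell as far. The lowest of them was -0.86, nearer to Cdkn1a than its implied SE of 0.30.

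**Figure D2:**
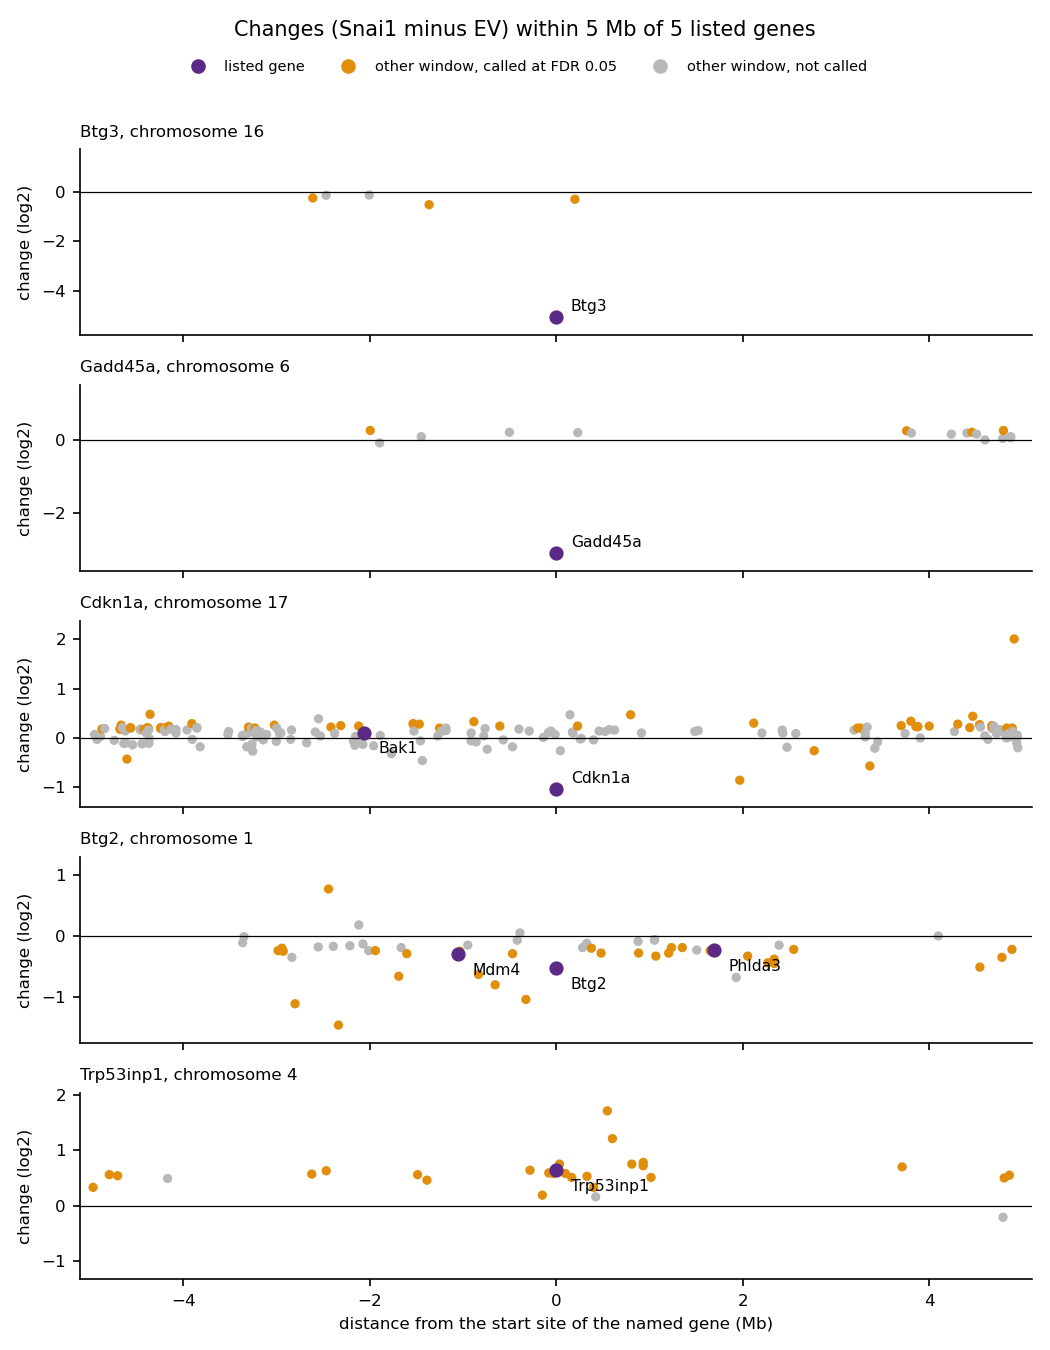
Change (y axis, log2, Snai1 minus EV) of every promoter window within 5 Mb of Btg3, Gadd45a, Cdkn1a, Btg2 and Trp53inp1, against distance from that gene's start site (x axis, Mb). Purple points are listed genes and orange points other called windows. Btg3 and Gadd45a lie far below the windows around them, and Cdkn1a (-1.04) is the lowest of its panel with another window at -0.86. Btg2 (-0.52), Mdm4, Phlda3 and Trp53inp1 lie among theirs, with other windows in the Btg2 panel as low as -1.46.

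By the authors' deposited table, 5 of 13 arrest, growth and stress targets were lower (38.5%, against 10.3% of all windows), 1 was higher (7.7%, against 19.6%) and 7 were not called. Phlda3, a p53-induced inhibitor of Akt that competes for membrane lipids, fell from 11.18 to 10.94 (change -0.23, implied SE 0.08, FDR 0.0191). Phlda3, Btg2 and Mdm4 lie within 2.74 Mb of one another on chromosome 1, so 3 of the 6 lower genes share 1 neighbourhood. From Mdm4 to Phlda3 there were 25 windows, of which 16 were called lower and 0 higher, with a median of -0.23. Set against the stretch median of -0.24, Mdm4 changed by -0.06 (adjusted p 0.699 with the implied SE) and Phlda3 by 0.01 (adjusted p 0.964).

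Trp53inp1 is a p53 target that promotes arrest, autophagy and death. Its window rose from 10.64 to 11.28 (change 0.64 or 1.56-fold, implied SE 0.08, FDR 1.56e-14), the largest increase of the 35 in the authors' deposited table. Its neighbours lay above 0 as well: of 28 other windows within 5 Mb on chromosome 4, 1 lay below 0, and their median was 0.56. Against the stretch median of 0.55 its change was 0.09 (adjusted p 0.531 with the implied SE). Zmat3, a p53-induced RNA-binding zinc finger gene, went from 8.98 to 8.69 (change -0.29, implied SE 0.12, FDR 0.0584) and just missed the threshold. It passed under all 3 other centres, at -0.41 against its stretch (adjusted p 0.0105).

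The remaining targets in this group were not called in the authors' deposited table. Ccng1, a cyclin gene that feeds back on Mdm2, changed by 0.17 (11.45 to 11.62, FDR 0.13). The sestrin genes, whose products restrain mTORC1, changed by 0.14 (Sesn1, FDR 0.0813) and 0.11 (Sesn2, FDR 0.32). The Sesn1 window sits at a downstream annotated start, 76865 bp inside the gene. Aen, an apoptosis-enhancing nuclease gene, changed by 0.08 (FDR 0.46). The damage recognition genes of nucleotide excision repair were as flat, Ddb2 at 0.04 (11.54 to 11.58, FDR 0.75) and Xpc at 0.01 (10.94 to 10.95, FDR 0.96). The whole Xpc window lies within that of the divergent gene Lsm3, which changed by 0.02.

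Among the Bcl2 family genes that promote death, 1 of 6 was called in the authors' deposited table (16.7%, against 29.9% of all windows). Bcl2l11 encodes Bim, the BH3-only protein that kills blood cells deprived of growth factor. It rose from 11.07 to 11.36 (change 0.29, implied SE 0.08, FDR 0.00157). Its window sits at a start 1537 bp inside the gene. Bax, one of the pore-forming effectors, was among the least open genes and went from 9.17 to 8.94 (change -0.23, FDR 0.12). Bak1, the other effector, went from 10.85 to 10.96 (change 0.11, FDR 0.26). The p53-induced BH3-only gene Bbc3 (Puma) was one of the most open windows, at 12.15 in EV and 12.03 in Snai1 (change -0.12, FDR 0.28). Bid, which links death receptors to mitochondria, changed by -0.02 (FDR 0.85), and Bad, which is silenced by survival signals, by 0.12 (FDR 0.24).

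Of the 3 survival genes of the family, Mcl1 was called (33.3%, against 29.9% of all windows). Mcl1, on which hematopoietic stem and progenitor cells depend, rose from 11.41 to 11.63 (change 0.22, implied SE 0.07, FDR 0.0146), by the authors' deposited table. Bcl2l1 (Bcl-xL) went from 12.13 to 12.26 (change 0.13, FDR 0.16), at percentile 96.0 of its width in EV. Bcl2 went from 11.53 to 11.38 (change -0.14, FDR 0.19) and lies in the lower stretch of chromosome 1, against which it changed by 0.10. Mcl1 was not called under any of the 3 other centres (0.14, 0.10 and 0.06, adjusted p 0.18, 0.444 and 0.689 with the implied SE). Bcl2l11, the death gene called higher, stayed so with the median of all windows subtracted (0.21, adjusted p 0.0356) but not with the stretch median (0.11, adjusted p 0.411) or the nearest windows (0.12, adjusted p 0.346).

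Downstream of the mitochondrion, Birc2 was called among 5 genes (20.0%, against 29.9% of all windows). Birc2, which encodes the ubiquitin ligase cIAP1, rose from 11.76 to 11.98 (change 0.23, implied SE 0.08, FDR 0.0151), by the authors' deposited table. Apaf1, the scaffold of the apoptosome, went from 11.77 to 11.61 (change -0.16, FDR 0.18). Casp9, the caspase it activates, went from 12.26 to 12.18 (change -0.08, FDR 0.52). Xiap, a direct caspase inhibitor, changed by 0.03 (FDR 0.80), and Diablo, which displaces it, by -0.02 (FDR 0.87). In the death receptor branch, Ripk1, the kinase that chooses between survival signalling and necroptosis, rose from 11.58 to 11.83 (change 0.25, implied SE 0.08, FDR 0.0144), by the authors' deposited table. Casp8, the initiator caspase of that branch, went from 10.53 to 10.43 (change -0.10, FDR 0.38).

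**Figure D3:**
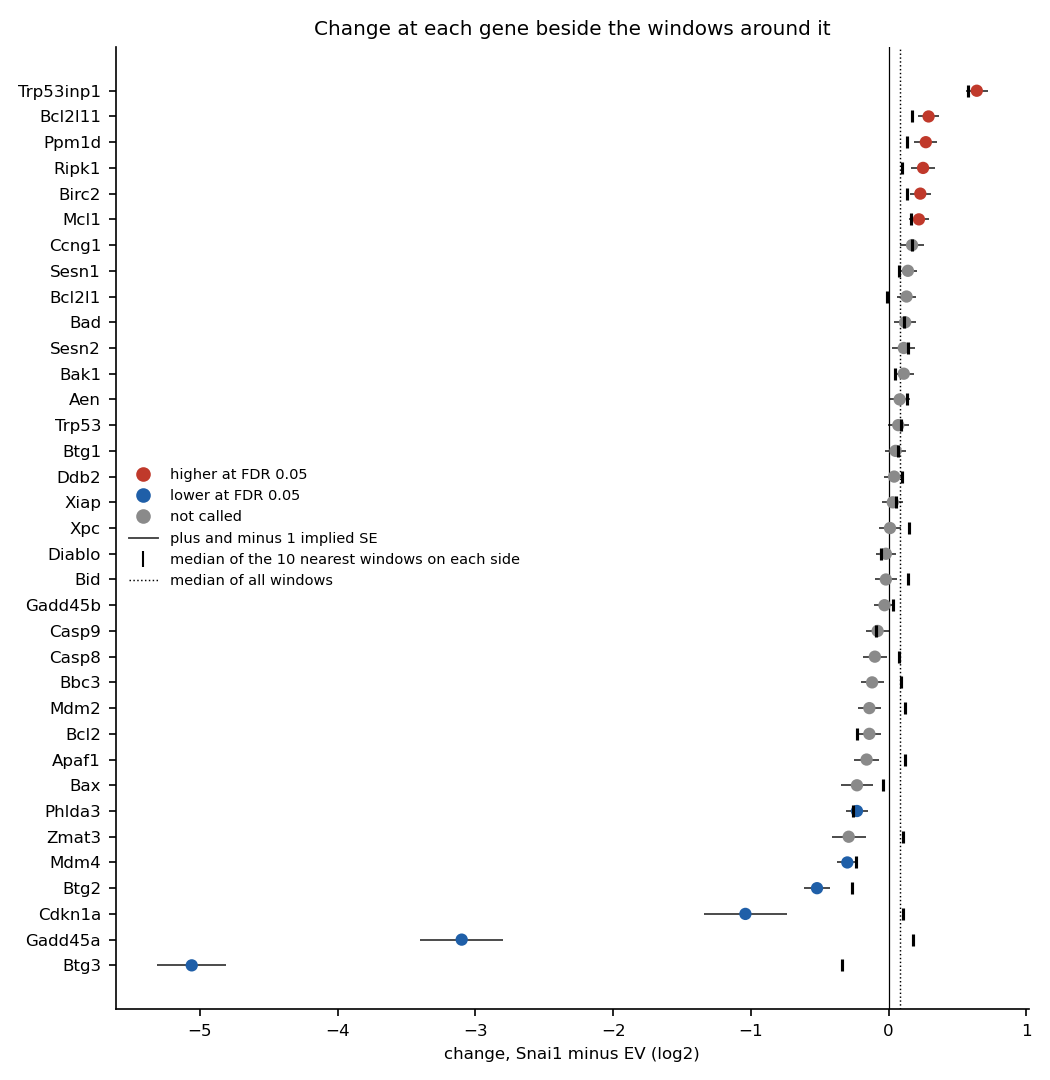
Change of each gene (x axis, log2, Snai1 minus EV; horizontal lines are 1 implied SE to each side), sorted from the highest to the lowest, with the median of the 10 nearest windows on each side as a black tick and the median of all windows (0.08) as a dotted line. Trp53inp1, Mdm4 and Phlda3 lie close to their ticks; Btg3, Gadd45a and Cdkn1a lie far to the left of theirs.

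The 5 higher genes other than Trp53inp1 rose by only 0.22 to 0.29 log2, close to the median of 0.26 among all windows called higher. With stretch medians subtracted, 0 of the 35 genes were higher and 5 were lower (Btg3, Gadd45a, Cdkn1a, Btg2 and Zmat3), against a background of 12.5% called, 4.75% higher and 7.77% lower. With the medians of the nearest windows subtracted, 0 were higher and 7 lower, Apaf1 and Mdm2 being added, against 13.7% called, 5.37% higher and 8.29% lower. Outside the shifted stretches, which held 891 windows and 6 of the 35 genes, 5 of 29 genes rose and 2 fell by the authors' FDR (24.1% called, 17.2% higher, 6.9% lower). Of all 9380 windows outside those stretches, 25.8% were called, 20.3% higher and 5.57% lower, so each share of the genes was near its background there.

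Gadd45a, Zmat3, Bax and Cdkn1a were the 4 genes with a log2 concentration over both groups under 9.5, a value that a decrease itself lowers. Cdkn1a stood above it in EV, at 9.76. Gadd45a and Cdkn1a were called and Zmat3 and Bax were not. Of all 1601 windows under 9.5, 19.3% were called lower and 13.2% higher, with a median change of -0.02. The part of low accessibility in these decreases was not tested. By position, 27 windows lay at the annotated 5' boundary and 8 inside the gene. The 8 were those of Mdm4, Sesn1, Bbc3, Bcl2l11, Bcl2l1, Mcl1, Xiap and Casp8. The start site of each of the 8 lay within 100 bp of an annotated RefSeq start of that gene. The divergent genes Wrap53, Lsm3, Gpr137, Ikbip and 4930429B21Rik share part or all of the windows of Trp53, Xpc, Bad, Apaf1 and Zmat3, and none of these 10 windows was called.

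**Figure D4:**
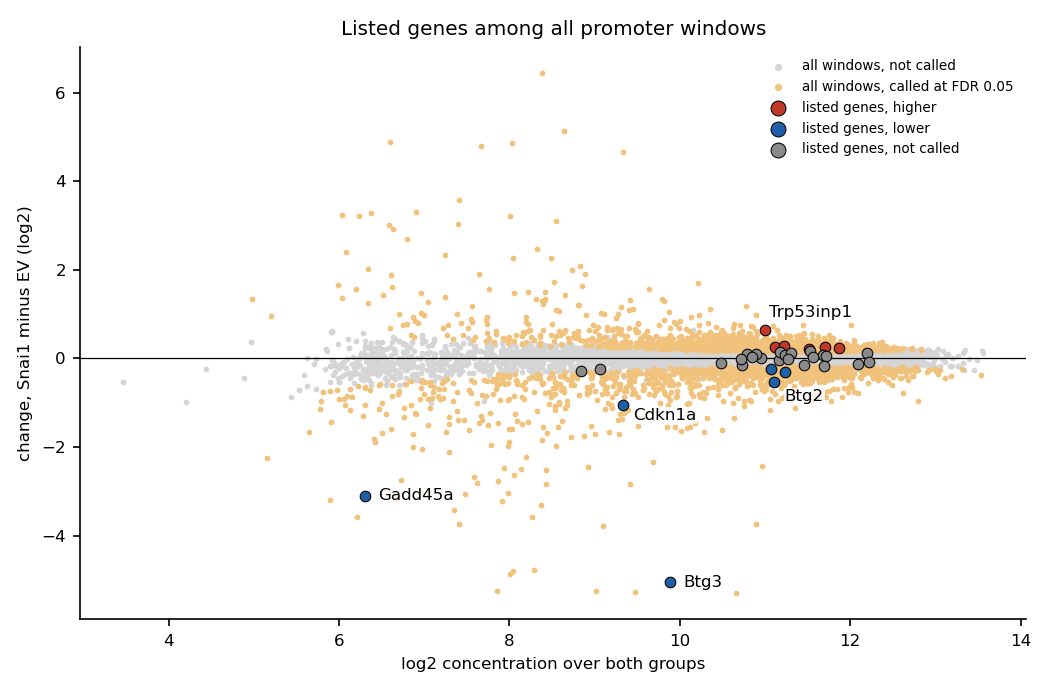
Change (y axis, log2, Snai1 minus EV) against the log2 concentration over both groups (x axis) for all 10271 windows, with the 35 genes as large points. Btg3 (-5.06) and Gadd45a (-3.10) lie among the few windows with the lowest changes and Cdkn1a (-1.04) at the lower edge of the dense cloud; the other listed genes lie between -0.52 and 0.64.

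Other genes of the same pathways were read from a list of 138, of which 109 had a window. By the authors' FDR 22 of the 109 rose and 9 fell (20.2% and 8.3%), near the background of 19.6% and 10.3%, and their median change was 0.11. The balance turned with the centre: 7 were higher and 11 lower with the median of all windows subtracted. With the stretch median it was 3 and 4, and with the nearest windows 3 and 6. The shares of all windows turned likewise: 7.23% higher and 13.8% lower, then 4.75% and 7.77%, then 5.37% and 8.29%. Of 17 death receptor genes 7 rose and 1 fell (41.2% and 5.9%, against 19.6% and 10.3% of all windows), and their median was 0.20. Those that rose included Map3k5 (0.30, FDR 7.75e-05), Tnfsf10, the gene of the death ligand TRAIL (0.31, FDR 5.33e-04), and the adaptor gene Tradd (0.29, FDR 0.0012). Traf3, another adaptor, fell by 0.57 in a lower stretch of chromosome 12 whose median was -0.42. With the median of all windows subtracted, 4 of the 17 were higher and 1 was lower, against 7.23% and 13.8% of all windows. With stretch medians subtracted, 0 of the 17 were called, against 12.5% of all windows. Set against the nearest windows, Map3k7 was lower (-0.31, adjusted p 6.23e-04 with the implied SE), which is named here after its values were seen. Of 9 further Bcl2 family genes, 4 rose and 0 fell by the authors' FDR (44.4% and 0.0%, against 19.6% and 10.3%). Bcl2l13 was among those that rose (0.26, FDR 0.00195). With any of the 3 medians subtracted, 0 of the 9 were higher and 1 was lower, Bmf, which is named here after its values were seen (-0.30 against its stretch, adjusted p 0.0145 with the implied SE).

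Among 27 further p53 targets, 2 rose and 3 fell by the FDR in the authors' deposited table (7.4% and 11.1%, against 19.6% and 10.3% of all windows). Eda2r, the receptor gene for ectodysplasin A2 and a p53 target, rose from 7.59 to 8.95 (change 1.35, implied SE 0.15, FDR 1.07e-16). Gdf15, a stress cytokine induced by p53, fell from 7.29 to 6.22 (change -1.06, implied SE 0.22, FDR 2.09e-05). Like Gadd45a, both were among the less open windows. Of 22 genes of damage sensing and p53 control, 3 were higher, among them the kinase gene Atm (0.26, FDR 0.00137), and 3 lower. That is 13.6% in each direction, against 19.6% higher and 10.3% lower of all windows. The lower ones included the genes of the p53 partners ASPP1 (Ppp1r13b, -0.57) and ASPP2 (Trp53bp2, -0.35), in the lower stretches of chromosomes 12 and 1. Of 18 caspase and mitochondrial genes, 3 rose and 1 fell (16.7% and 5.6%, against 19.6% and 10.3%). Birc3, the neighbour and relative of Birc2, rose by 0.39 (FDR 0.00103), and Parp1, which senses DNA breaks, changed by -0.42 (FDR 2.44e-08) in the stretch of chromosome 1. Of 16 further arrest genes, 3 were higher and 1 lower (18.8% and 6.2%, against 19.6% and 10.3%). With stretch medians subtracted, 1 of the 22, 1 of the 18 (Birc3) and 0 of the 16 were higher, and 0 were lower. The shares of all windows were then 4.75% higher and 7.77% lower.

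**Figure D5:**
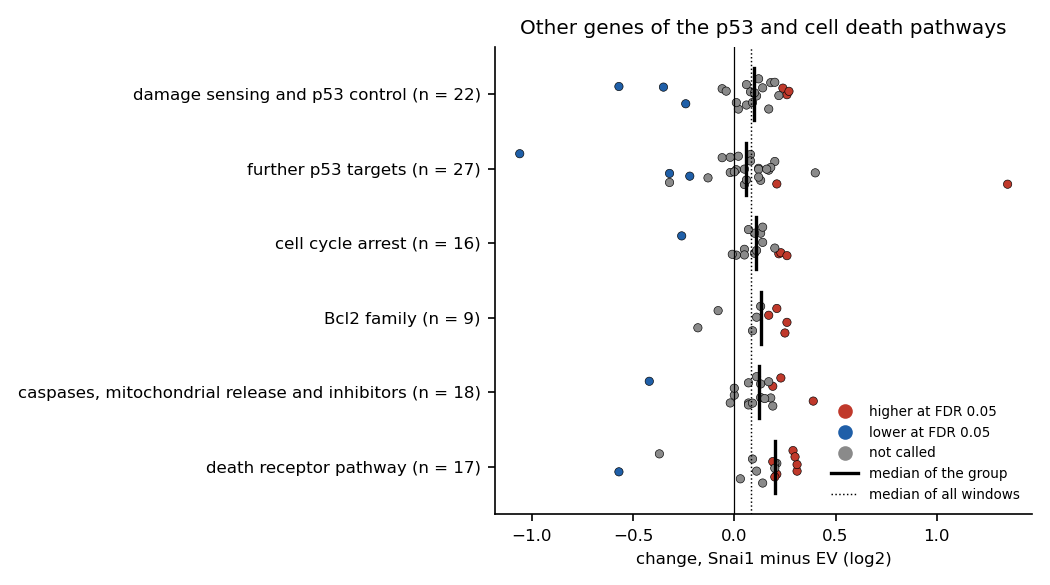
Change (x axis, log2, Snai1 minus EV) of the 109 other pathway genes by role, coloured by the authors' call, with each role's median as a black line and the median of all windows (0.08) as a dotted line. Points are spread vertically only to separate them; Eda2r (1.35) and Gdf15 (-1.06) lie farthest from 0, and the medians run from 0.06 to 0.20.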

How the data were processed

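ATAC-seq was done in 9 libraries of 3 groups. The build was mm10 and the tools were DiffBind, Picard, Bowtie2 and fastp, per the submitters' processing notes; their versions, any Tn5 shift and the scaling are not given there. The authors' deposited table gave, per the file headers, log2 concentrations per group, a log2 fold (EV minus Snai1, sign turned here), the p-value and the FDR. It held 0 columns of values per sample, so the deposited p and FDR were used and no count model could be fitted. Of 10274 rows, 3 repeats were dropped.

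A window's start site lies 1000 bp after its start if 2001 bp wide and 100 bp after if 1101 bp wide. It took the RefSeq gene (GRCm38.p6) of that strand with a 5' end within 1000 bp, protein-coding first, otherwise the only gene spanning it; 38 windows had none or several. Genes with several windows took the most accessible one.

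The implied SE is the change over the normal deviate of p, or, for changes under 0.1 log2 or p listed at 0, the median of its accessibility bin (20 bins); its median was 0.083. For re-tests, 1 of 3 medians was subtracted (all windows, the stretch, or the 10 nearest windows on each side) and p was adjusted by Benjamini-Hochberg over all windows. Stretches came from an optimal partition of each chromosome (15 or more windows each, from those with a log2 concentration of 9 or more, changes clipped at 0.75, penalty 4 times the variance and log n) and counted as shifted when 0.2 log2 or more from the median of all windows. The code was tested on simulated data. Alternatives are given in the closing section. Every gene with a window is named; of the other pathway genes, those with the smallest FDR. The members, lists and tests were chosen with earlier results of these data known. Python 3.11.15, pandas 2.3.3 and scipy 1.17.1 were used.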

Additional observations from a re-analysis of the deposited data

How the results depend on the processing

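The median change of the genes was -0.07 with all windows as the centre. The 6 higher genes became 3 at FDR 0.01, 1 with a change of at least 0.3, 2 with the centre at the median of all windows, 0 with the stretch median, 0 with the nearest windows, and 2 with a 5' end within 100 bp. The 6 lower genes became 10 with the centre at the median of all windows and 2 without the shifted stretches (an alternative chosen after seeing the data). With only the 27 windows at the 5' end kept, 4 genes were higher and 5 lower, since Mcl1, Bcl2l11 and Mdm4 left the set. Called other pathway genes, 31 in all, numbered 19 at FDR 0.01 and 11 with a change of at least 0.3. With all windows as the centre they numbered 18 (7 higher, 11 lower). With the stretch median they numbered 7 (3 and 4), and with the nearest windows 9 (3 and 6). Shares of all windows are given above for the 3 centres and without the shifted stretches. They were not counted for the other settings, so losses there cannot be set against those of all windows. Gadd45a and Cdkn1a stayed lower wherever their windows were kept, except that Gadd45a has no value at a log2 concentration of at least 9; Btg3 stayed lower except where its window left the set (5' end within 100 bp, or no shifted stretches). Signs turned with all windows as the centre at Trp53 (-0.01), Btg1 (-0.03), Ddb2 (-0.04), Xpc (-0.07), Xiap (-0.05). With the stretch median they turned at Trp53 (-0.02), Btg1 (-0.02), Phlda3 (0.01), Aen (-0.04), Ddb2 (-0.08), Xpc (-0.11), Bcl2 (0.1), Xiap (-0.06). With the nearest windows they turned at Trp53 (-0.02), Btg1 (-0.015), Sesn2 (-0.03), Phlda3 (0.03), Aen (-0.055), Ddb2 (-0.06), Xpc (-0.14), Bcl2 (0.09), Casp9 (0.01), Diablo (0.035), Xiap (-0.02). Of these genes only Phlda3 was called in the authors' deposited table. Choosing the window by the smallest p or the distance to the 5' end changed no value, since each gene had 1 window. No paired analysis was possible because the table gives group values and no value per library, and for the same reason no library could be left out. Sequencing depth is unknown. The implied SE was largest at low accessibility (median 0.175 in the lowest of 10 equal classes of windows, 0.107 in the next), so small changes at genes such as Bax and Zmat3 were hardest to call.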
